A study of Mus musculus with 94 samples.

Results

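Integrins are the cell-surface receptors through which cells hold on to the extracellular matrix and to one another, and laminins are the main adhesive proteins of the basement membrane that surrounds each adipocyte and each vessel of fat. The genes described here are all gene symbols of the count tables that begin with Itga, with Itgb followed by a number, or with Lama, Lamb or Lamc followed by a number, without Itgax, and with a mean of at least 0.5 CPM (a gene's counts scaled to the total of its library) over the 47 libraries of a depot. Of 20411 symbols, 36 carried such a name and 34 passed the level, namely 23 integrins and 11 laminins. All 34 passed in epididymal white fat (eWAT) and 33 in inguinal white fat (iWAT), where Lama1 averaged 0.0628 CPM. Just inside the limit were Itgad with 0.692 CPM in eWAT and Itgb6 with 0.834 CPM in eWAT and 0.945 CPM in iWAT. The eWAT mean of Itgad rested largely on the obese mice, as given below. Just outside were Itga2, with 0.339 CPM in eWAT and 0.497 CPM in iWAT, and Itgb8, with 0.305 and 0.419 CPM.

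RNA of both depots was sequenced from 47 male C57BL/6JBomTac mice, so each mouse gave 2 libraries. Obese mice (n = 5) had eaten the high-fat diet D12492 for 18 weeks from 10 weeks of age and were killed at 28 weeks. Regression mice (n = 6 a group) had the same 18 weeks and then the low-fat diet D12450J for 2, 6 or 12 weeks, to 30, 34 or 40 weeks of age. Lean mice (n = 6 at each of the 4 times) ate the low-fat diet throughout and had the age of the group they are compared with. No mouse carried a named allele or transgene in the labels. Mice were housed 3 to a cage. The labels do not say which mice shared one, so the p-values measure the spread between these mice.

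An integrin is a pair of an alpha and a beta chain. The pair sets the ligand. Beta 2 pairs sit on leukocytes and bind counter-receptors and complement fragments, and alpha 4 pairs bind VCAM1 and fibronectin. Alpha 1, alpha 10 and alpha 11 with beta 1 bind collagens, and alpha 3, alpha 6 and alpha 7 with beta 1 bind laminins. Alpha 5, alpha 8 and alpha V pairs bind the RGD sequence of fibronectin, vitronectin and related proteins. A laminin is a trimer of an alpha, a beta and a gamma chain, and the alpha chain decides most of what it binds. In fat, alpha 4 and alpha 2 laminins with beta 1 or beta 2 and gamma 1 make up much of the basement membrane, and the tissue is remodelled when adipocytes grow or shrink.

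Library totals ran from 1318944 to 25866576 counts in eWAT and from 6268458 to 34327987 counts in iWAT. The lowest was replicate 2 of the eWAT mice at 2 weeks of regression. Defining genes of adipocytes, fibroblasts, endothelium and macrophages had counts in every library of both depots. Some libraries stood apart by other tissue. Genes of the epididymal duct summed to at least 10 CPM in 5 eWAT libraries, most in lean replicate 5 at 6 weeks (5784 CPM), lean replicate 2 at 2 weeks (2601 CPM) and obese replicate 5 (1234 CPM). B cell genes, which lymph nodes express, summed to at least 100 CPM in 7 iWAT libraries, with the largest sums in regression replicate 2 at 12 weeks (1134 CPM), lean replicate 2 at 2 weeks (938 CPM) and lean replicate 6 at 12 weeks (390 CPM). Beside each named gene whose call against lean mice was lost without these libraries, the value without them is given. Values are CPM scaled with TMM factors; log2 fold changes carry the standard error of the fit, and a gene is called at an adjusted p under 0.05 from edgeR's quasi-likelihood test, adjusted over all genes tested in that depot.

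In lean eWAT the highest levels of both families were those of Itgb1 and Lamc1, and the lowest those of Lama3, Itgb6 and Itgad. Per kb of exons, which allows genes to be compared, Itgb1, the beta chain of the collagen-binding and most laminin-binding integrins, led in eWAT with 95.2 ± 10.03 CPM per kb (SD, n = 24 lean libraries). Lamc1, the gamma chain of nearly all laminin trimers, followed with 51.4 ± 6.32 CPM per kb and Itgb5, which pairs with alpha V, with 45.7 ± 6.65 CPM per kb; the last pair differed by less than their spread. Lamb2 (35.2 ± 4.63 CPM per kb) and Itga6 (33.0 ± 5.13 CPM per kb) came next and also overlapped, then Itga7 (22.6 ± 3.13 CPM per kb), Lamb1 (11.95 ± 1.83 CPM per kb) and Lama4 (9.38 ± 1.60 CPM per kb). The order of the first 4 was the same in iWAT. At the other end stood Lama3 (0.228 ± 0.0674 CPM per kb), the chain of epithelial laminin, Itgb6 (0.162 ± 0.157 CPM per kb), an epithelial beta chain, and Itgad (0.0271 ± 0.0431 CPM per kb), an alpha chain of macrophages, each in eWAT.

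**Figure D1:**
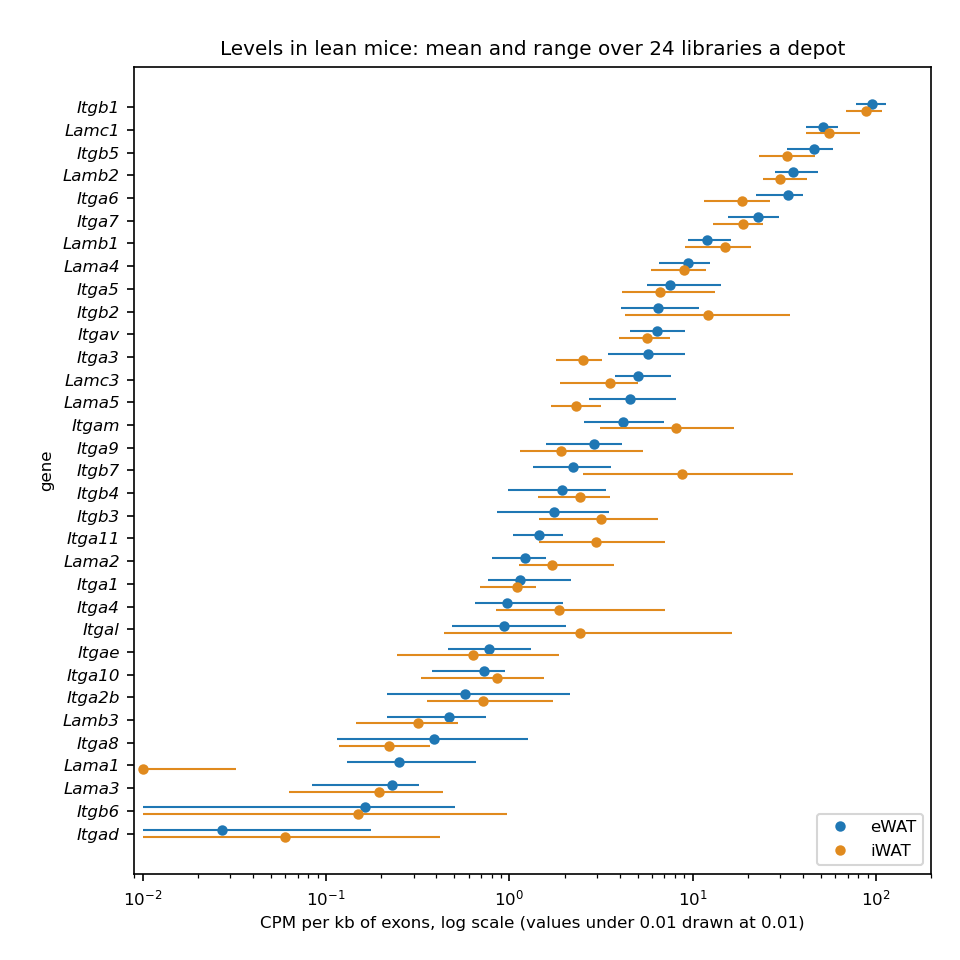
Each point is the mean level of 1 of 33 genes in CPM per kb of exons over the 24 lean libraries of a depot, on a log axis, and the line is the range from the lowest to the highest library; blue is eWAT and orange is iWAT. Itgb1 and Lamc1 lead in both depots, and Lama1 is the gene with the widest gap between the depots.

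The depots of lean mice differed in 24 of the 34 genes, 11 higher and 13 lower in eWAT, against 59.3% of all genes tested (28.1% higher and 31.2% lower). Lama1, whose trimer is a laminin of embryonic and epithelial basement membranes, had the largest difference (5.11 ± 0.36, adjusted p = 1.24e-15; log2 of eWAT over iWAT), and its lowest lean eWAT library (1.26 CPM) lay above the highest iWAT library of any group (0.375 CPM). Itga3 and Itga6, which bind laminins, and Lama5 were also higher in eWAT (log2 differences 1.08 ± 0.09, 0.77 ± 0.07 and 0.84 ± 0.10), as were Itga9, Itga8, Lamb3, Lamc3, Itgb5, Itga7 and Lamb2. Mesothelial genes were measured beside them: their summed level was 266 to 390.8 CPM in lean eWAT and 4.60 to 10.2 CPM in lean iWAT at the obesity time, and the part of that tissue in these differences was not tested. Lower in eWAT were Itgb7 (-1.79 ± 0.17, adjusted p = 1.99e-12), a lymphocyte beta chain, Itga11 (-1.06 ± 0.10, adjusted p = 1.41e-12), Itgam, Itgb3, Itga4, Itgb2, Itgal, Lama2, Itga2b, Itgb4, Lamb1, Itga10 and Lamc1. Among lean iWAT mice the libraries with B cell signal stood out for lymphocyte chains: Itgal reached 107 CPM in lean replicate 2 at 2 weeks, against a median of 9.19 CPM in its group. Of 7 B cell markers 6, and of 6 T cell markers 5, were called lower in lean eWAT than in lean iWAT, and their part was not tested.

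Many of these genes were called in obesity and at 2 weeks of regression in both depots, and after that the calls were in eWAT. In eWAT 13 of the 34 were higher and none lower in obese mice, while 23.4% of all genes tested were called (14.1% higher and 9.31% lower). After 2 weeks of regression 13 were higher and 5 lower (background 35.7%, with 18.6% higher and 17.1% lower). After 6 weeks 3 were higher and 2 lower (background 7.58%, with 5.56% higher and 2.02% lower). After 12 weeks 7 were higher and 3 lower (background 15.3%, with 10.8% higher and 4.51% lower). In iWAT 15 of the 33 tested were higher and 1 lower in obese mice (background 30.2%, with 14.7% higher and 15.5% lower). After 2 weeks 6 were higher and 1 lower (background 18.8%, with 9.44% higher and 9.37% lower). None was called in iWAT after 6 or 12 weeks with edgeR or with DESeq2, where the background was 1.04% (0.554% higher and 0.482% lower) and 0.0288% (0.0216% higher and 0.00719% lower). At an unadjusted p under 0.05 there were 5 at 6 weeks and 2 at 12 weeks. The median log2 fold change of the genes was 0.33 in obese eWAT against -0.0034 over all genes tested, and 0.40 against 0.02 in obese iWAT. At 6 weeks it was -0.0019 in eWAT and 0.09 in iWAT. Between the oldest and the youngest lean mice no gene of the group was called in either depot with edgeR or DESeq2 (unadjusted p under 0.05 in 4 in eWAT and 6 in iWAT; background 0.105% and 0.496%).

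**Figure D2:**
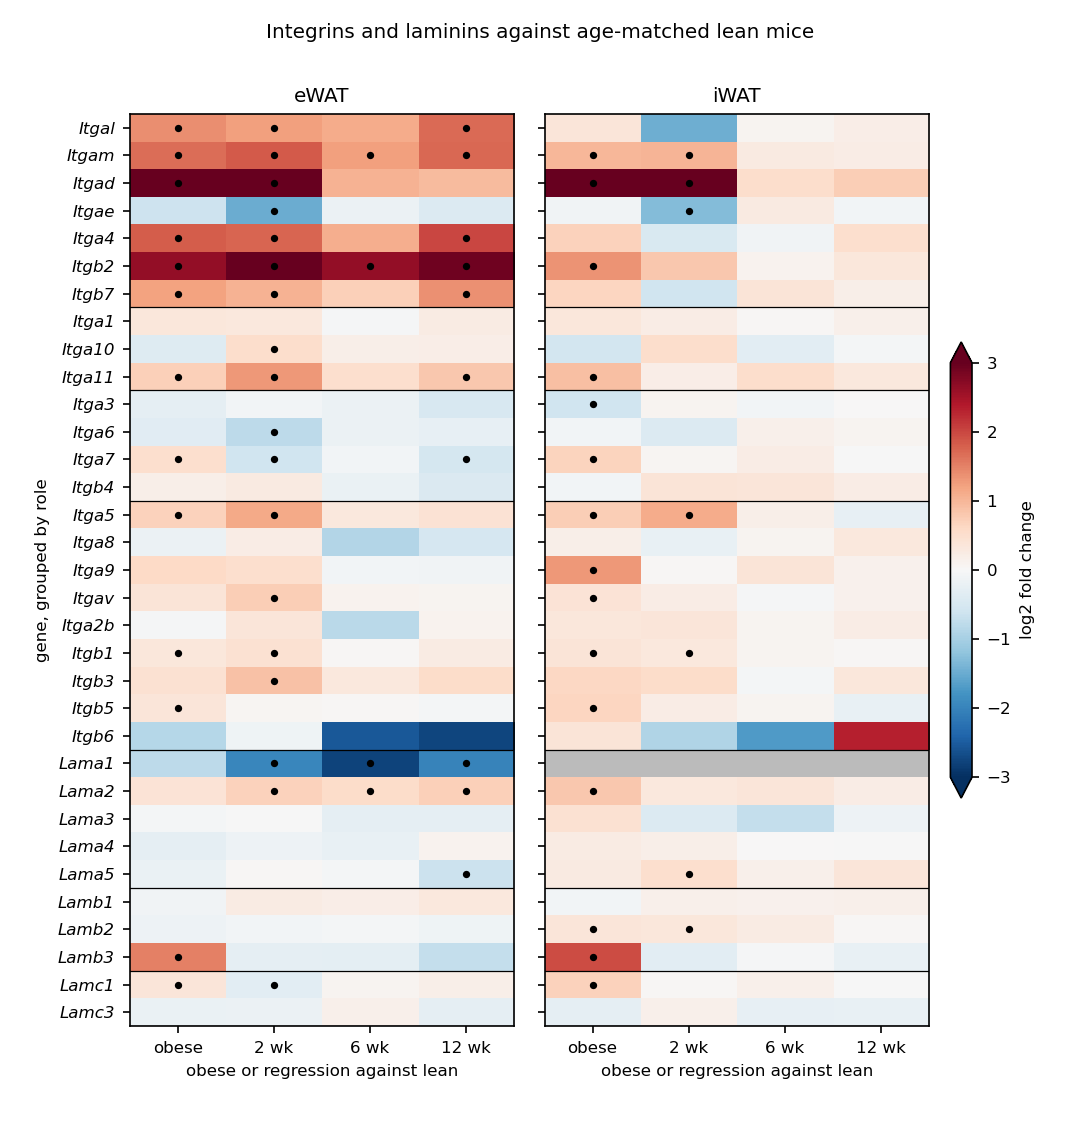
Colour gives the log2 fold change of 33 genes (rows, grouped by role) in obese or regression mice against lean mice of the same age (columns) in eWAT and iWAT; colours saturate at 3 and -3, dots mark an adjusted p under 0.05 and grey marks a gene not tested. Dots continue through 12 weeks in eWAT, mostly in the leukocyte integrins at the top, and end after 2 weeks in iWAT.

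Leukocyte integrins were higher in the epididymal fat of obese mice, and some of them were called at each time of regression. Of the 7 genes of this group (Itgal, Itgam, Itgad, Itgae, Itga4, Itgb2 and Itgb7), 6 rose in obese eWAT and none fell, 6 were higher and 1 lower at 2 weeks, 2 were higher at 6 weeks and 5 were higher at 12 weeks. Over all genes tested 14.1%, 18.6%, 5.56% and 10.8% were called higher at these times, and 17.1% lower at 2 weeks. Itgad is 1 of the 6 in obesity and met the level rule in eWAT largely through the obese mice. It averaged 3.63 CPM in them, 0.0799 CPM in lean mice of that time and 0.642 CPM over all 47 libraries. Its obesity call is thus partly built into its place in the set. Itgb2 and Itgam were higher at all 4 times, and they were the 2 genes of the whole set of which that was true. Their 6-week calls were lost with the mice of each run of mouse numbers within each group as a random block. The values were 2.18 ± 0.70, adjusted p = 0.124 for Itgb2 and 1.15 ± 0.41, adjusted p = 0.152 for Itgam. Both calls were also lost in each run fitted alone (adjusted p from 0.147 to 0.303). Mice with replicate numbers 1 to 3 carry one run of mouse numbers and those with 4 to 6 the other. In bulk tissue, more or fewer cells of a type and more or less RNA per cell cannot be told apart.

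Itgb2 (chr10:77530252-77565708, mm10, + strand) encodes the beta chain of the leukocyte-specific integrins. In obese eWAT its level in replicates 1 to 5 was 60.8, 162, 48.5, 265 and 27.8 CPM, against 15.97 to 23.8 (median 17.4) CPM in lean mice. All 5 obese mice were above all 6 lean mice, with replicate 4 highest and replicate 5 next to the lean range, and the log2 fold change was 2.63 ± 0.53, adjusted p = 0.000435. After 2 weeks the regression mice had 59.5 to 232 (median 188) CPM and the lean mice 15.2 to 21.96 (median 19.6) CPM. The groups again did not overlap, and the fold change was the largest of the 4 times (3.17 ± 0.52, adjusted p = 1.74e-05). At 6 weeks the range was 22.9 to 305 (median 112) CPM against 15.9 to 25.05 (median 19.7) CPM, and regression replicate 4 lay inside the lean range (2.64 ± 0.52, adjusted p = 0.00372). At 12 weeks it was 25.2 to 277 (median 196) CPM against 12.4 to 33.0 (median 22.2) CPM (2.92 ± 0.52, adjusted p = 0.000669). Regression replicates 3 and 6 had 25.2 and 27.0 CPM and the other 4 regression mice were far above every lean mouse.

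Itgam (chr7:128062640-128118491), which encodes CD11b, the partner of beta 2 on macrophages and other myeloid cells, followed Itgb2. Obese mice had 38.5, 79.3, 48.8, 123 and 32.3 CPM and lean mice 16.1 to 22.6 (median 21.3) CPM in eWAT, with no overlap (1.69 ± 0.33, adjusted p = 0.000358). At 2 weeks the regression mice had 34.5 to 92.97 (median 85.6) CPM against 17.98 to 24.6 (median 21.5) CPM; replicate 1 was the lowest of them and still above all lean mice (1.83 ± 0.32, adjusted p = 3.67e-05). At 6 weeks (26.8 to 89.4, median 56.0, against 13.2 to 35.0, median 22.9, CPM; 1.22 ± 0.32, adjusted p = 0.0156) and 12 weeks (15.8 to 92.7, median 74.1, against 12.9 to 29.3, median 17.8, CPM; 1.72 ± 0.32, adjusted p = 0.000812) the groups overlapped. At 12 weeks the low mice were again regression replicates 3 (15.8 CPM) and 6 (33.4 CPM). Itga4 (chr2:79255426-79333123), the alpha chain of VLA-4 on lymphocytes and monocytes, had 20.6, 44.0, 26.6, 106 and 16.7 CPM in obese and 9.77 to 13.96 (median 12.6) CPM in lean mice (1.81 ± 0.39, adjusted p = 0.000916). Its groups did not overlap at 2 weeks either (18.8 to 50.2, median 44.7, against 9.21 to 12.9, median 12.1, CPM; 1.76 ± 0.38, adjusted p = 0.000423). At 6 weeks it missed the threshold (1.09 ± 0.38, adjusted p = 0.0644) and at 12 weeks it was called (15.7 to 80.8, median 67.7, against 9.05 to 16.9, median 14.4, CPM; 2.01 ± 0.38, adjusted p = 0.000819).

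Itgal, the alpha chain of LFA-1 on lymphocytes and other leukocytes, and Itgb7, the beta chain of gut-homing lymphocyte integrins, rose less evenly. In obese eWAT Itgal had 5.99, 9.18, 9.96, 39.2 and 6.67 CPM against 3.62 to 8.70 (median 5.07) CPM in lean mice (1.40 ± 0.42, adjusted p = 0.0135). Itgb7 had 6.21, 9.07, 10.2, 29.2 and 8.67 CPM against 3.73 to 7.84 (median 5.48) CPM (1.20 ± 0.36, adjusted p = 0.0137). In both genes replicate 4 stood far above the other obese mice; replicates 1 and 5 lay inside the lean range for Itgal and replicate 1 for Itgb7. At 12 weeks Itgal had 6.06 to 42.4 (median 25.6) CPM in regression mice and 5.83 to 8.46 (median 7.80) CPM in lean mice (1.70 ± 0.41, adjusted p = 0.00443). Itgb7 had 5.97 to 29.1 (median 19.2) against 4.06 to 9.81 (median 7.26) CPM (1.37 ± 0.35, adjusted p = 0.00677). Both were also called at 2 weeks (1.23 ± 0.41, adjusted p = 0.0178 for Itgal; 1.04 ± 0.35, adjusted p = 0.0193 for Itgb7) and neither at 6 weeks. With the random block both genes lost the call in obesity (adjusted p = 0.177 and 0.108) and at 2 weeks (adjusted p = 0.115 and 0.0861). In replicates 1 to 3 alone the 2-week values were 0.71 ± 0.47, adjusted p = 0.316 for Itgal and 0.20 ± 0.44, adjusted p = 0.8 for Itgb7; in 4 to 6 alone they were 1.63 ± 0.64, adjusted p = 0.0678 and 1.66 ± 0.48, adjusted p = 0.0196. Itgae, which encodes CD103 of tissue-resident T cells and some dendritic cells, went the other way: at 2 weeks the regression mice had 0 to 2.68 (median 1.41) CPM and the lean mice 2.98 to 4.98 (median 4.48) CPM (-1.48 ± 0.33, adjusted p = 0.000565). The groups did not overlap, and the 0 was the library with the lowest total.

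**Figure D3:**
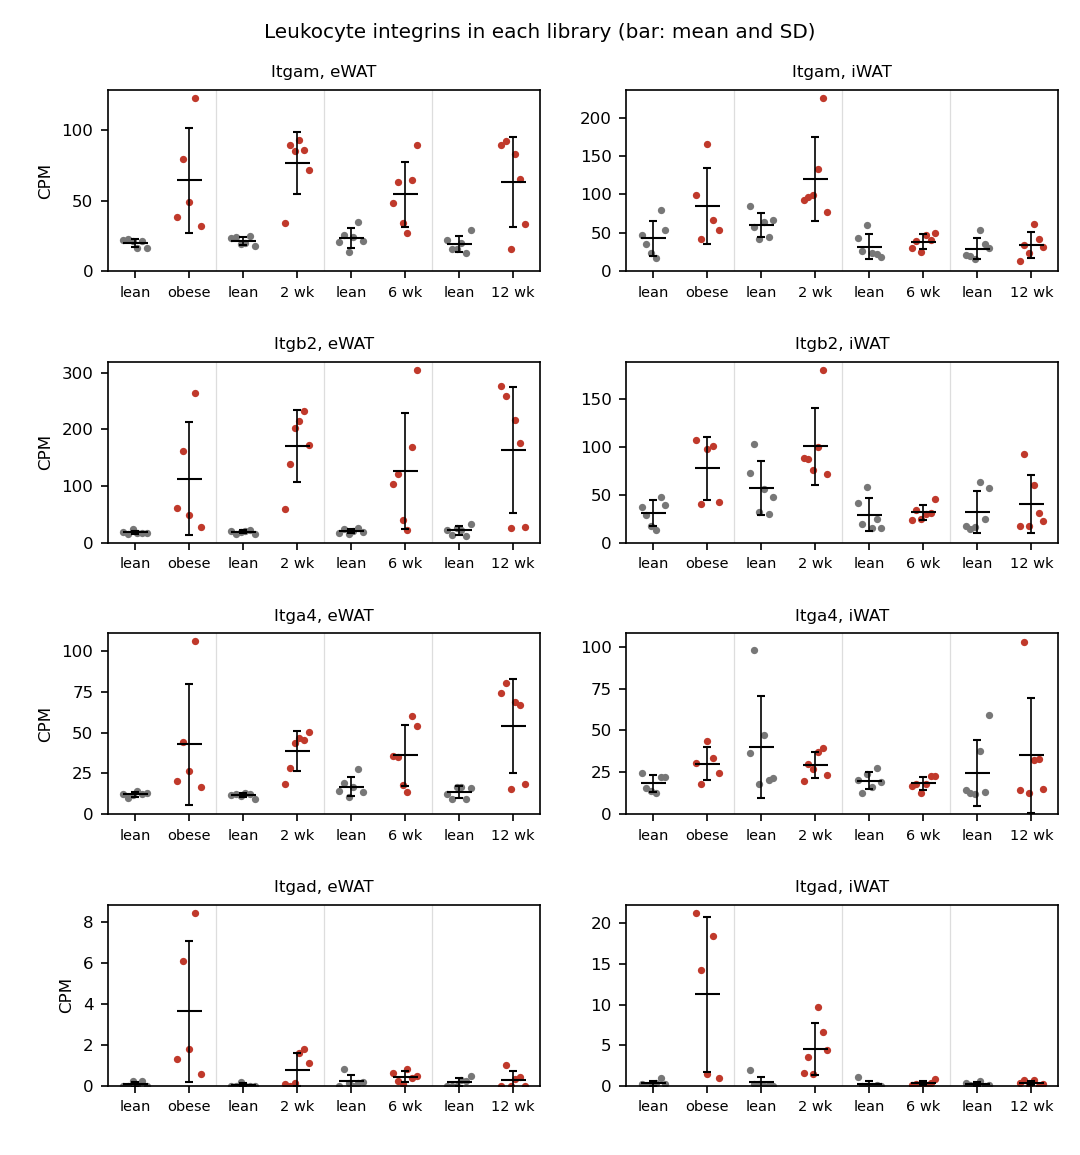
Points are CPM in each library (grey lean, red obese or regression), with bars for the group mean and SD (cut at 0), for leukocyte integrins in eWAT (left) and iWAT (right) at the 4 times. In eWAT the red points of Itgb2, Itgam and Itga4 spread upward at every time with a few mice near the lean level, and in iWAT single lean or regression mice reach the highest values of Itga4.

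Cell type markers were read beside these genes. Of all genes tested in eWAT 14.1% were called higher in obesity, 18.6% at 2 weeks, 5.56% at 6 weeks and 10.8% at 12 weeks. At 2 weeks 17.1% were called lower. Of 8 macrophage markers 7 were called higher in obese eWAT, 8 at 2 weeks and 7 at 6 and at 12 weeks, and none was at 0 in any eWAT library. Their summed level was 468.8 to 613 CPM in lean and 744 to 3294 CPM in obese mice, and at 12 weeks 386 to 900.2 CPM in lean and 658 to 3753.3 CPM in regression mice. Of the 6 T cell markers tested, 2 were called higher in obese mice, 2 at 2 weeks, none at 6 weeks and all 6 at 12 weeks; their sum at 12 weeks was 4.41 to 13.5 CPM in lean and 6.57 to 77.5 CPM in regression mice. Of 7 B cell markers 3 were called higher at 12 weeks. Of 6 genes of lipid-associated macrophages, Itgax among them, 4 were called higher in obesity, 5 at 2 weeks with 1 lower, 4 at 6 weeks and 5 at 12 weeks. Ly6g, a defining gene of neutrophils, was at 0 in 42 of the 47 eWAT libraries and reached at most 0.156 CPM, and none of the 2 neutrophil markers tested was called at any time. The part of these cell types in the integrin changes was not tested.

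Obese replicate 4 decided part of the count. Without it 7 of the 13 genes stayed called in obese eWAT, among them Itgb2 (2.05 ± 0.52, adjusted p = 0.00774), Itgam and Itga4, and the calls of Itgal (0.58 ± 0.39, adjusted p = 0.382), Itgb7 (0.64 ± 0.35, adjusted p = 0.247), Itga11, Itga5, Itgb1 and Itgb5 were lost. At 6 weeks Itgam was not called without regression replicate 6 (1.04 ± 0.33, adjusted p = 0.0807), and at 2 weeks Itgb7 was not called without regression replicate 6 (0.88 ± 0.37, adjusted p = 0.061). The count at 6 weeks was 2 in place of 5 without regression replicate 6, and 8 without regression replicate 4, the mouse nearest the lean level. At 12 weeks the count rose from 10 to 18 without regression replicate 3, with Itga3, Itga5, Itgb1, Itgb3, Itgb6, Lamb1 and Lamb3 among the 8 gained genes. The share of all genes called in these single-library fits is not given here, so whether the counts moved with it was not tested. Of the 2 runs of mouse numbers fitted apart, the first gave 3, 9, 0 and 5 calls at the 4 times in eWAT and the second 9, 15, 0 and 0, and no gene called over all mice changed direction in either. Over all genes the first called 4.28%, 14.9%, 0% and 4.74% and the second 10.4%, 25.2%, 0% and 0.00686%. At 6 weeks edgeR thus called no gene of the whole table in either (unadjusted p under 0.05 in 1908 and 2542).

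In inguinal fat 3 of the 7 leukocyte integrins rose in obesity, against 14.7% of all genes tested. At 2 weeks 2 were higher and 1 lower (9.44% and 9.37% of all genes), and none was called at 6 or 12 weeks. Itgb2 had 107, 40.7, 97.8, 101 and 42.9 CPM in obese and 13.1 to 48.0 (median 32.8) CPM in lean mice (1.35 ± 0.43, adjusted p = 0.0161). Obese replicates 2 and 5 lay inside the lean range and the other 3 above it. It was not called at 2, 6 or 12 weeks (0.82 ± 0.41, 0.11 ± 0.42 and 0.33 ± 0.42). Itgam had 98.9, 42.2, 165, 66.4 and 53.0 CPM in obese against 17.1 to 80.2 (median 41.0) CPM in lean mice (0.99 ± 0.37, adjusted p = 0.0391). It had 76.9 to 226 (median 97.7) against 41.3 to 84.4 (median 60.9) CPM at 2 weeks (1.01 ± 0.36, adjusted p = 0.0422). The groups overlapped at both times. Leaving out one library ended the call of Itgam in obesity in 5 of 11 fits (lean replicate 2, 3 or 4, or obese replicate 1 or 3; adjusted p from 0.0704 to 0.246) and at 2 weeks in 7 of 12 (any lean replicate from 2 to 6, or regression replicate 4 or 5; 0.0518 to 0.166). The 2-week call was also lost without the libraries of high B cell signal (0.98 ± 0.43, adjusted p = 0.109). With the random block neither was called (adjusted p = 0.0775 and 0.106). Of the macrophage markers 7 of 8 were called higher in obese iWAT, and 1 of 8 at 2 weeks, near the share of all genes. Their sums were 398.4 to 1065 CPM in lean, 914 to 3139.6 CPM in obese, and 999.7 to 2334 and 1614 to 3755.2 CPM in lean and regression mice at 2 weeks. Of the 3 neutrophil markers tested 2 were called higher in iWAT at 2 weeks and none at the other times; Ly6g was at 0 in 35 of the 47 libraries. The part of these cells was not tested.

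Itga4, Itgal and Itgb7 were not called in iWAT at any time. The highest Itga4 values were 103 CPM in regression replicate 2 at 12 weeks, 98.2 CPM in lean replicate 2 at 2 weeks and 59.4 CPM in lean replicate 6 at 12 weeks, the libraries with the largest B cell sums. Itgae was lower in regression mice at 2 weeks, with 0.75 to 3.02 (median 0.949) CPM against 2.22 to 8.51 (median 2.55) CPM (-1.30 ± 0.37, adjusted p = 0.0122). With the random block it was not called (adjusted p = 0.0755). Lean replicate 2 had the highest value, and without it the call was lost (-0.83 ± 0.35, adjusted p = 0.0924). With the 7 libraries of high B cell signal left out, Itgae was still called (-1.07 ± 0.33, adjusted p = 0.021). The count at 2 weeks fell from 7 to 2, the other being Itga5. Over all genes 1129 were called higher and 1342 lower of 13865, against 1312 and 1302 of 13899 with all libraries. Of 6 T cell markers 3 were called lower at 2 weeks in iWAT, against 9.37% of all genes, and their part was not tested.

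Itgad (chr7:128154376-128223816), which encodes CD11d, an alpha chain of macrophages in tissue, had the largest fold changes of the called genes and rests on small counts. It lies downstream of Itgam and Itgax on the same strand. In eWAT the obese mice had 1.31, 6.09, 1.80, 8.41 and 0.556 CPM, and 4 of 6 lean libraries had no count and the highest 0.245 CPM, so the groups did not overlap (5.21 ± 0.98, adjusted p = 0.000227). Summed over libraries there were 165 counts in obese against 5 in lean mice, a rate ratio of 42.7 (exact 95% interval 17.9 to 133). At 2 weeks there were 35 against 2 counts, a ratio of 25.8 (exact 95% interval 6.63 to 222) and a call (4.24 ± 1.11, adjusted p = 0.0026). The regression mice ran 0 to 1.79 (median 0.615) CPM and the lean mice 0 to 0.201 (median 0) CPM, and regression replicates 1, 2 and 3 lay inside the lean range. Replicates 1 to 3 alone gave 0.27 ± 1.90, adjusted p = 0.951, and 4 to 6 alone 6.90 ± 1.48, adjusted p = 0.00631. By 6 and 12 weeks the ratios were 2.08 (exact 95% interval 0.923 to 5.28) and 2.26 (exact 95% interval 0.957 to 6.18), and neither was called. These intervals cover counting error only, and PCR copies are not independent molecules.

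In iWAT too Itgad varied widely between mice. Obese mice had 21.2, 14.3, 1.42, 18.4 and 0.888 CPM and lean mice 0 to 0.958 (median 0.209) CPM, with 3 obese mice far above all others and replicate 5 inside the lean range (5.06 ± 0.88, adjusted p = 3.79e-05). The count ratio was 32.0 (exact 95% interval 21.5 to 49.8). At 2 weeks the range was 1.39 to 9.70 (median 3.97) CPM against 0 to 1.88 (median 0.139) CPM, and lean replicate 1 was the only lean mouse inside the regression range (3.33 ± 0.85, adjusted p = 0.00543). This call was lost without the libraries of high B cell signal (2.50 ± 0.94, adjusted p = 0.0602) and with the random block (3.59 ± 1.67, adjusted p = 0.168). Replicates 1 to 3 alone gave 1.36 ± 1.02, adjusted p = 0.449, and 4 to 6 alone 7.01 ± 1.42, adjusted p = 0.00506. At 6 and 12 weeks it was not called, with ratios of 1.46 (exact 95% interval 0.68 to 3.34) and 1.69 (exact 95% interval 0.729 to 4.25). The change of the Itgad difference since obesity at 12 weeks in eWAT was -4.27 ± 1.51, adjusted p = 0.138. The part of the neighbouring Itgax in the Itgad counts was not tested: of 4555 stretches of 50 bases in Itgad transcripts 384 (8.43%) also occur in Itgax and none in Itgam, and the labels do not say how reads that fit both genes were counted. Itgax itself had 24.2, 73.8, 10.8, 118 and 7.67 CPM in obese eWAT, 2.38 to 186 (median 77.4) CPM at 12 weeks of regression and 0.574 to 3.54 (median 2.28) CPM in the lean mice of that time.

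The promoter sequences of 3 genes are shown because 2 of them, Itgam and Itga4, were called at 3 of the same times in eWAT and the other, Lamb3, was called in obesity and at no later time in both depots. RefSeq promoters (GRCm38.p6, the assembly of mm10) were found for 20 of the 34 genes, as 23 windows. The windows hold up to 250 bases before the gene start, 5′ to 3′ on the gene's strand, here + in all 3, and capitals mark GAGGAA or its reverse complement TTCCTC, a core that the myeloid factor PU.1 and other ETS factors can bind. Itgam is at chr7:128062390-128062639, Itga4 at chr2:79255176-79255425 and Lamb3 at chr1:193301744-193301992, whose RefSeq start lies inside the longer mm10 gene model (chr1:193207699-193343878).
Itgam: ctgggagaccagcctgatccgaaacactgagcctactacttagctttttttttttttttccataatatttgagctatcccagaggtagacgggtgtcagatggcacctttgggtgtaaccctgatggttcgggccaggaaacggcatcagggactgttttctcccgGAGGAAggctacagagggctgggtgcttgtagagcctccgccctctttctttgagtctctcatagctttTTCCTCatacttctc
Itga4: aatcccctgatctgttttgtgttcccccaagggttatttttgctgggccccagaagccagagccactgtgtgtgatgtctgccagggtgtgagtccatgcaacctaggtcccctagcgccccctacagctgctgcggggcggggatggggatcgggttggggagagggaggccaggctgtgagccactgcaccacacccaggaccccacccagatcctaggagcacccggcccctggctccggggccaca
Lamb3: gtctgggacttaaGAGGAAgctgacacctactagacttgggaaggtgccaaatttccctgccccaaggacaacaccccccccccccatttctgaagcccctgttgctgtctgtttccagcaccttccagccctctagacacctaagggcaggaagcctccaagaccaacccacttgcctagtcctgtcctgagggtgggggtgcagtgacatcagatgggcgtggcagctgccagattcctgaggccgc
The motif was present 2 times in the Itgam window, 84 and 15 bases before the start, not in the Itga4 window, and 1 time in the Lamb3 window, 237 bases before the start. On either strand it occurred in 13 of the 23 windows of these genes and in 23.3% of 32851 windows of the same length. GGGCGG, which SP1 can bind, was in 9 of 23 windows and in 32.7% of all, and TATAAA and TGACTCA were in none of the 23 (12.4% and 4.46% of all). A match is a description of letters and not evidence of binding.

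Among the matrix-binding alpha chains the collagen receptor chain Itga11 and the fibronectin receptor chain Itga5 were each called higher in 4 of the 8 comparisons, as was the beta chain Itgb1. Itga11 (chr9:62677826-62783982), found mainly on fibroblasts, had 10.02, 12.1, 11.8, 19.1 and 11.3 CPM in obese eWAT against 5.38 to 9.84 (median 7.79) CPM in lean mice (0.73 ± 0.19, adjusted p = 0.00579). At 2 weeks it had 12.4 to 36.1 (median 17.0) CPM against 5.65 to 8.95 (median 7.39) CPM (1.31 ± 0.19, adjusted p = 3.91e-06). At 12 weeks it had 9.55 to 14.01 (median 13.0) against 6.27 to 8.67 (median 6.65) CPM (0.81 ± 0.19, adjusted p = 0.00348). The groups did not overlap at these 3 times, and regression replicate 2 at 2 weeks, the library with the lowest total, stood highest; without it the fold change was 1.11 ± 0.17, adjusted p = 8.06e-06. In iWAT Itga11 had 26.1, 26.1, 32.2, 23.9 and 21.6 CPM in obese and 7.42 to 20.9 (median 13.97) CPM in lean mice, again without overlap (0.91 ± 0.25, adjusted p = 0.00522), and it was not called later. Itga10 (0.53 ± 0.19, adjusted p = 0.0231) was called only at 2 weeks in eWAT among the 8 comparisons, and not without lean replicate 1, 3 or 5 (adjusted p from 0.0504 to 0.0740). Itga1 was not called in any.

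Itga5 in eWAT was at 44.9, 73.7, 42.3, 81.8 and 34.3 CPM in obese against 27.6 to 41.4 (median 34.5) CPM in lean mice (0.69 ± 0.21, adjusted p = 0.012). It was at 54.7 to 101 (median 75.8) against 29.8 to 36.6 (median 34.8) CPM at 2 weeks (1.14 ± 0.20, adjusted p = 3.27e-05). The 2-week groups were apart, while obese replicate 5 lay within the lean range. In iWAT the values were 64.2, 54.9, 61.8, 53.5 and 31.6 CPM in obese and 20.3 to 46.0 (median 30.9) CPM in lean mice (0.73 ± 0.24, adjusted p = 0.0193). At 2 weeks in iWAT they were 48.5 to 103 (median 80.1) against 25.1 to 60.3 (median 30.7) CPM (1.12 ± 0.23, adjusted p = 0.000751), and lean replicate 1, the highest lean mouse, overlapped the regression mice. The obesity calls were lost without obese replicate 2 or 4 in eWAT (adjusted p = 0.055 and 0.0942) and without lean replicate 4 or obese replicate 1 in iWAT (adjusted p from 0.0572 to 0.0574). The 2-week calls held in every such fit in both depots.

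Itga9, whose beta 1 pair binds tenascin C and VCAM1, rose in obese iWAT and no obese value reached the lean range. Obese mice had 28.8, 25.7, 32.4, 25.8 and 21.7 CPM and lean mice 8.76 to 14.4 (median 9.85) CPM (1.29 ± 0.22, adjusted p = 3.59e-05). At 2 weeks regression and lean mice gave no call (16.6 to 34.9, median 22.4, against 15.01 to 41.1, median 18.5, CPM; 0.02 ± 0.21, adjusted p = 0.953), and the lean mice of the other 3 times had 8.76 to 20.2 CPM. In obese eWAT Itga9 missed the threshold (0.60 ± 0.25, adjusted p = 0.0848). Itgav, the alpha chain of the vitronectin receptors, was called in obese iWAT (103, 72.8, 75.3, 79.8 and 83.3 against 56.6 to 68.3, median 63.8, CPM, no overlap; 0.40 ± 0.12, adjusted p = 0.00882; 0.0556 without obese replicate 1) and at 2 weeks in eWAT (0.73 ± 0.17, adjusted p = 0.000824).

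The abundant beta chains were called with small fold changes. Itgb1 rose in obesity (0.33 ± 0.10, adjusted p = 0.0168 in eWAT; 0.40 ± 0.10, adjusted p = 0.00157 in iWAT) and at 2 weeks (0.45 ± 0.10, adjusted p = 0.000433; 0.32 ± 0.09, adjusted p = 0.0121); its eWAT obesity call was lost without obese replicate 2 or 4 (adjusted p = 0.0648 and 0.0506). Its iWAT call at 2 weeks was lost without the libraries of high B cell signal (0.25 ± 0.10, adjusted p = 0.0667). With mean log2 marker levels as terms it was lost too (0.19 ± 0.08, adjusted p = 0.0663). The same held with the compared groups alone (adjusted p = 0.065) and in replicates 1 to 3 alone (adjusted p = 0.393). Itgb5 rose in obesity in iWAT, with 168, 168, 124, 193 and 169 CPM against 86.2 to 131 (median 102) CPM (0.66 ± 0.14, adjusted p = 0.000357), and in eWAT (0.35 ± 0.12, adjusted p = 0.0216), where the call was lost without obese replicate 4 or lean replicate 6 and with the libraries of duct signal and the shallowest left out (0.27 ± 0.11, adjusted p = 0.0681). Itgb3, the partner of alpha V and of platelet alpha IIb, was called at 2 weeks in eWAT (0.88 ± 0.22, adjusted p = 0.0018). Itga8, Itga2b and Itgb6 were called in none of the comparisons with lean mice, and Itgb6 was at most 6.86 CPM in any library. Fibroblast and progenitor markers were measured beside these genes. In each depot 5 of 6 were called higher in obese mice, against 14.1% of all genes in eWAT and 14.7% in iWAT. None of these markers was at 0 in any library, and their sums were 1153 to 1988 CPM in lean and 2845 to 4026 CPM in obese iWAT. Their part was not tested.

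**Figure D4:**
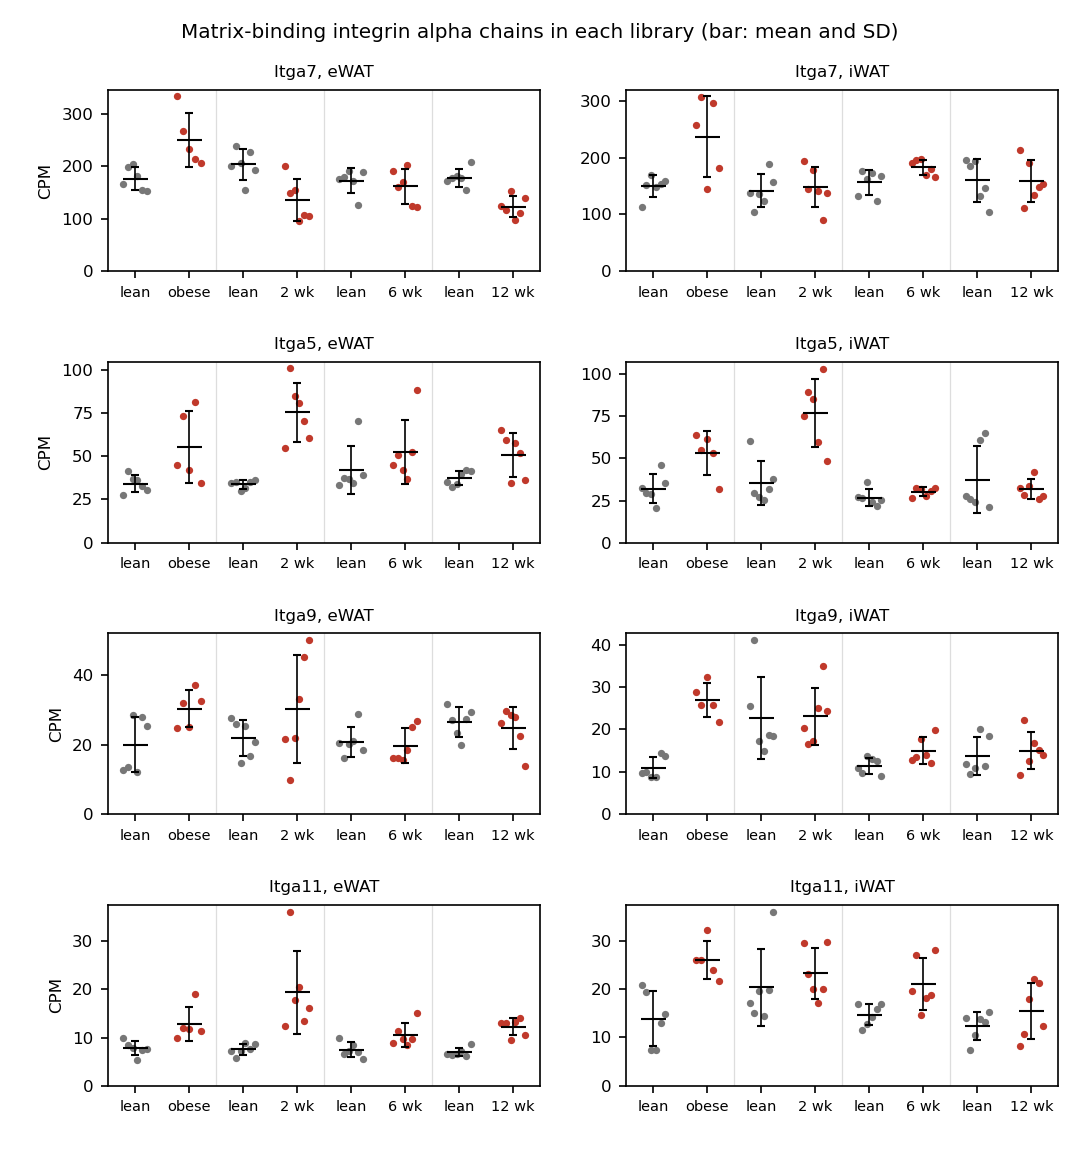
Points are CPM in each library (grey lean, red obese or regression) with the group mean and SD for 4 matrix-binding integrin alpha chains in eWAT (left) and iWAT (right). Itga7 is higher in obese mice and lower at 2 and 12 weeks in eWAT, Itga5 in regression mice at 2 weeks lies above all lean mice of that time in eWAT, Itga9 stands apart in obese iWAT and Itga11 is raised at 3 of the 4 times in eWAT.

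Of the laminin-binding integrins Itga7 was called in both directions in eWAT. Itga7 (chr10:128933818-128958282), the laminin receptor chain known from muscle, was higher in obese eWAT, at 334, 267, 233, 214 and 205 CPM against 153 to 205 (median 174) CPM (0.51 ± 0.15, adjusted p = 0.0143), and the lowest obese value lay just above the highest lean one while replicate 1 was far above. At 2 weeks it was lower, at 95.2 to 201 (median 128) against 155 to 239.6 (median 204) CPM (-0.59 ± 0.15, adjusted p = 0.00176), and the groups overlapped through regression replicate 1. At 6 weeks there was no call (-0.09 ± 0.15), and at 12 weeks it was lower again without overlap (96.9 to 153, median 119.8, against 154 to 207, median 178, CPM; -0.54 ± 0.15, adjusted p = 0.012). The obesity call was lost without obese replicate 1 (adjusted p = 0.0719). The change of the difference since obesity was itself called at 2 weeks (-1.10 ± 0.21, adjusted p = 0.00127) and 12 weeks (-1.04 ± 0.21, adjusted p = 0.00411). In iWAT Itga7 rose in obesity (258, 307, 146, 297 and 181 against 112 to 169, median 153, CPM; 0.67 ± 0.18, adjusted p = 0.00426) and was not called later.

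Itga6, the receptor chain for most laminins on endothelium and epithelium, fell in eWAT at 2 weeks, from 225 to 354 (median 302) CPM in lean to 110.1 to 227 (median 174) CPM in regression mice (-0.78 ± 0.16, adjusted p = 0.000216). The call held in every fit with one library left out. Itga3 fell in obese iWAT, where it had 13.7, 11.3, 8.94, 9.50 and 8.29 CPM against 12.2 to 18.3 (median 16.5) CPM (-0.60 ± 0.14, adjusted p = 0.00147); 4 of 5 obese mice were below all lean mice. It was the one gene of the set called lower in obesity in either depot. Itgb4, the partner of alpha 6 in hemidesmosomes, was not called in any of the 8 comparisons. Endothelial markers gave 1 of 6 called higher and none lower in eWAT at 2 weeks (18.6% and 17.1% of all genes). Their sums were 872 to 1244 CPM in lean and 919 to 1501 CPM in regression mice, and no marker was at 0 in any library. Adipocyte markers then summed to 15503 to 24577 (median 19725) CPM in lean and 11071 to 22681 (median 13811) CPM in regression mice. At 12 weeks, when Itga7 was lower, their medians were 17949 CPM in lean and 13576 CPM in regression mice. The part of these cell types was not tested.

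Of the laminin chains Lamb3 changed most in obesity, and it was called in obese mice and at no later time. Lamb3 encodes beta 3, a chain of a laminin of epithelia. In eWAT obese mice had 12.1, 13.2, 6.09, 9.36 and 4.9998 CPM and lean mice 2.31 to 4.41 (median 3.04) CPM (1.505 ± 0.29, adjusted p = 0.000281). In iWAT obese mice had 6.50, 11.7, 3.19, 11.9 and 3.85 CPM and lean mice 1.36 to 2.82 (median 1.82) CPM (1.97 ± 0.29, adjusted p = 3.46e-06). All obese values were above all lean values in both depots. After 2 weeks of regression Lamb3 was at 0 to 2.77 (median 2.48) against 2.01 to 3.29 (median 2.55) CPM in eWAT. In iWAT it was at 1.30 to 1.94 (median 1.69) against 0.961 to 3.49 (median 1.996) CPM, with no call then or later. The difference from lean mice was smaller than in obesity at every later time in both depots, from -1.77 ± 0.41, adjusted p = 0.00645 in eWAT at 2 weeks to -2.23 ± 0.41, adjusted p = 0.00124 at 12 weeks. In iWAT these changes were -2.28 ± 0.41, -2.001 ± 0.41 and -2.18 ± 0.41 at 2, 6 and 12 weeks. These 3 comparisons of a depot share its obese and lean libraries of the obesity time. Every obesity call of Lamb3 held with any one library left out; in replicates 4 to 6 alone the eWAT value was 1.11 ± 0.35, adjusted p = 0.0522.

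Lama3, the alpha chain that joins beta 3, was called in none of the comparisons with lean mice, and its obese values were 1.31 to 3.00 CPM in eWAT and 0.989 to 2.85 CPM in iWAT. Keratin epithelium markers were read beside Lamb3: none of the 5 tested in eWAT and of the 1 tested in iWAT was called in obesity. Their eWAT sums were 12.5 to 271 CPM in lean and 9.15 to 138 CPM in obese mice. Their iWAT sums were 0.594 to 1.93 CPM in lean and 0.888 to 1.92 CPM in obese mice, and Krt14 was at 0 in 44 of the 47 iWAT libraries. Most of these markers were too low to test in iWAT, and the part of epithelium in the Lamb3 change was not tested in either depot.

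**Figure D5:**
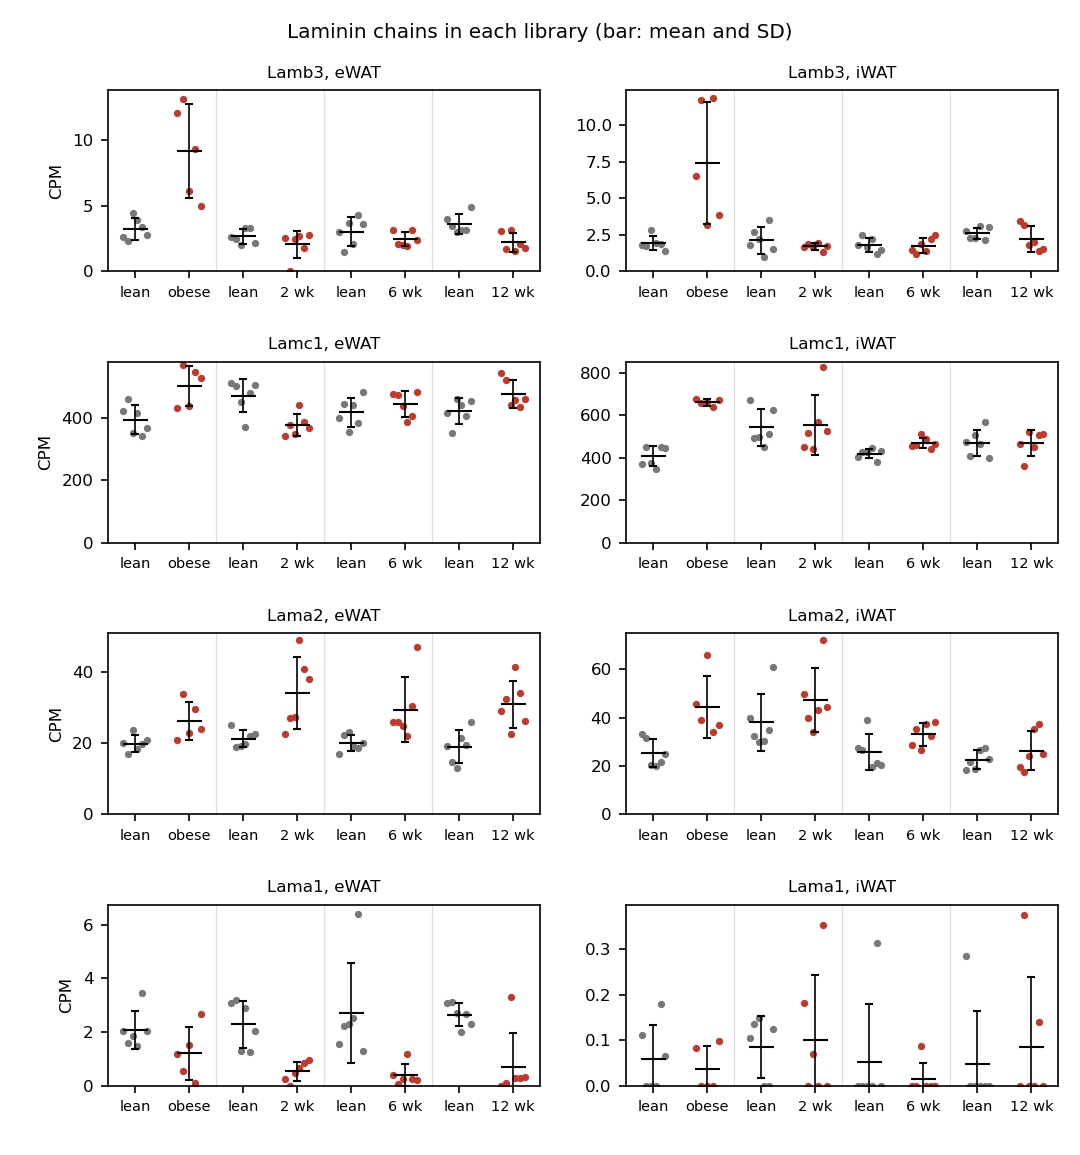
Points are CPM in each library (grey lean, red obese or regression), with bars for the group mean and SD (cut at 0), for laminin chains in eWAT (left) and iWAT (right). Lamb3 is raised in the 5 obese mice of both depots, Lama1 is low in eWAT regression mice except replicate 3 at 12 weeks, and Lamc1 is raised in obese iWAT.

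Lamc1, present in most laminin trimers of fat, rose in obese iWAT in every mouse, at 677, 656, 661, 636 and 669 CPM against 344 to 451.5 (median 410.8) CPM (0.70 ± 0.12, adjusted p = 2.17e-05), with no overlap. In obese eWAT it rose too (431.3, 569, 438.1, 547 and 527 against 342 to 459.5, median 391.1, CPM), by 0.35 ± 0.10, adjusted p = 0.00613. That call was lost with the compared groups alone and in replicates 1 to 3 alone (adjusted p up to 0.377). At 2 weeks Lamc1 was lower in eWAT (343 to 441.6, median 373, against 372 to 510.1, median 491, CPM). The log2 fold change was -0.32 ± 0.09, adjusted p = 0.00617, and the call was lost in replicates 4 to 6 alone (adjusted p = 0.297). In iWAT Lamc1 was not called then (0.03 ± 0.11, adjusted p = 0.873). The change since obesity was called in both depots at 2 weeks (-0.67 ± 0.13, adjusted p = 0.00147 in eWAT; -0.67 ± 0.16, adjusted p = 0.0133 in iWAT) and in iWAT at 12 weeks (-0.70 ± 0.16, adjusted p = 0.00654). Lamb2, a beta chain of vessel and muscle laminins, rose in iWAT in obesity (227, 229, 236, 215 and 214 against 162 to 199.8, median 166, CPM, no overlap; 0.37 ± 0.10, adjusted p = 0.00528) and at 2 weeks (0.34 ± 0.10, adjusted p = 0.0142). The 2-week call was lost without the libraries of high B cell signal (0.25 ± 0.10, adjusted p = 0.0679), with the random block (adjusted p = 0.0505), with the compared groups alone (adjusted p = 0.128) and in each run of mouse numbers alone (adjusted p = 0.102 and 0.186). Lamb2 was called at no time in eWAT. Lamb1 was not called in any of the 8 comparisons.

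The alpha chains that were called in eWAT were called during regression, not in obesity. Lama2, an alpha chain around muscle fibres, nerves and fat cells, was higher at 2 weeks (22.6 to 49.1, median 32.7, against 18.7 to 24.99, median 20.9, CPM; 0.70 ± 0.17, adjusted p = 0.0016), 6 weeks (21.9 to 47.1, median 25.9, against 16.8 to 22.99, median 19.6, CPM; 0.55 ± 0.17, adjusted p = 0.0411) and 12 weeks (22.5 to 41.4, median 30.7, against 13.1 to 26.0, median 19.4, CPM; 0.71 ± 0.17, adjusted p = 0.00493). All 3 pairs of groups overlapped. The 2-week call was lost in replicates 1 to 3 alone (adjusted p = 0.376) and the 12-week call in replicates 4 to 6 alone (adjusted p = 0.142). The 6-week call was lost in 7 of the 12 fits with one library left out (lean replicate 1, 3, 4, 5 or 6, regression replicate 5 or 6; adjusted p from 0.0505 to 0.219), and regression replicate 6 had the highest value then. It was also lost with the libraries of duct signal and the shallowest left out (0.55 ± 0.19, adjusted p = 0.0742) and with the random block (adjusted p = 0.171). In iWAT Lama2 rose in obesity (45.5, 38.9, 65.9, 34.2 and 36.8 against 19.9 to 33.4, median 23.4, CPM, no overlap; 0.81 ± 0.21, adjusted p = 0.00297). Lama5, the main alpha chain of adult epithelia and vessels, was lower in eWAT at 12 weeks (29.0 to 52.4, median 37.3, against 34.7 to 76.8, median 62.5, CPM; -0.64 ± 0.21, adjusted p = 0.0344) and higher in iWAT at 2 weeks (20.04 to 39.3, median 37.7, against 19.8 to 32.2, median 23.4, CPM; 0.51 ± 0.17, adjusted p = 0.0296). Single libraries left out ended the first in 8 of 12 fits (lean replicate 1, 2 or 5, or any regression replicate but 3; adjusted p up to 0.1005) and the second in 6 of 12 (lean replicate 3 or 4, regression replicate 1, 2, 4 or 6; up to 0.0798). The first was also lost with the libraries of duct signal and the shallowest left out (-0.55 ± 0.23, adjusted p = 0.0824). The second was lost without those of high B cell signal (0.40 ± 0.20, adjusted p = 0.174) and with the random block (adjusted p = 0.126).

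Lama1 (chr17:67697259-67822647) was lower in eWAT at the 3 times of regression. At 2 weeks regression mice had 0 to 0.97 (median 0.575) CPM and lean mice 1.26 to 3.18 (median 2.47) CPM (-1.95 ± 0.64, adjusted p = 0.0155). At 6 weeks they had 0.061 to 1.19 (median 0.263) against 1.31 to 6.39 (median 2.26) CPM (-2.79 ± 0.65, adjusted p = 0.00799). The groups did not overlap at either time. At 12 weeks regression replicate 3 had 3.28 CPM, above every lean mouse of that time, while the other 5 had 0 to 0.325 CPM against 2.01 to 3.12 (median 2.70) CPM in lean mice (-2.002 ± 0.62, adjusted p = 0.0238). Without replicate 3 the value was -3.53 ± 0.58, adjusted p = 7.49e-05, and the call was lost without regression replicate 1, 2, 4 or 5 (adjusted p from 0.0627 to 0.0760). In obese eWAT the mice had 1.20, 0.553, 1.52, 0.105 and 2.67 CPM against 1.49 to 3.43 (median 1.94) CPM, with no call (-0.78 ± 0.62, adjusted p = 0.4). Keratin epithelium markers were summed beside it: 6.54 to 241 CPM in lean and 7.84 to 26.8 CPM in regression mice at 6 weeks, and at 12 weeks 42.7 to 235 and 5.27 to 202 CPM, with replicate 3 the highest of the regression mice. None of their 5 tested genes was called at any time, and their part was not tested. With the libraries of duct signal and the shallowest left out Lama1 was called at all 3 times (-1.71 ± 0.66, adjusted p = 0.0419 at 2 weeks; -2.32 ± 0.65, adjusted p = 0.0282 at 6 weeks; -1.95 ± 0.62, adjusted p = 0.0289 at 12 weeks). All 3 Lama1 calls were lost in each run of mouse numbers fitted alone. The adjusted p there was up to 0.228 at 2 weeks and 0.288 at 6 weeks, when these fits called no gene of the whole table. The 12-week call was also lost with the compared groups alone, and the adjusted p was up to 0.352 over these fits. Lama4 and Lamc3 were called in none of the 8 comparisons.

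The 9 genes called in none of the 8 comparisons with lean mice had these ranges of log2 fold change. The collagen receptor chain Itga1 ran from -0.04 to 0.34, the platelet chain Itga2b from -0.80 to 0.37 and the RGD-binding chain Itga8 from -0.87 to 0.31. The epithelial chains Itgb4 and Itgb6 ran from -0.43 to 0.39 and -2.76 to 2.33. Among laminins Lama3 ran from -0.70 to 0.45, Lama4 from -0.27 to 0.24, Lamb1 from -0.11 to 0.32 and Lamc3, a gamma chain of vessels and nerves, from -0.27 to 0.15.

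The depots differed in their response for a few of the genes. The difference in response, eWAT minus iWAT within the same mice, was called for 2 of 34 genes in obesity against 1.32% of all genes (0.671% higher and 0.651% lower): Lama4, an alpha chain of vessel and fat cell basement membranes (-0.54 ± 0.11, adjusted p = 0.00841), and Lamb2 (-0.56 ± 0.13, adjusted p = 0.0155). Lama4 in obese mice was at 85.2, 105, 136, 79.1 and 114 CPM in eWAT, against 103 to 150.01 (median 128) CPM in lean mice. In iWAT it was at 109.7, 131, 162, 103 and 133 CPM against 90.8 to 134 (median 104) CPM. Within each depot the groups overlapped and neither change was called, with the eWAT value below and the iWAT value above 0 (-0.27 ± 0.13 and 0.24 ± 0.13). At 2 weeks 6 of 34 were called (8.42% of all, with 3.86% higher and 4.56% lower): Itgb2 (2.18 ± 0.57, adjusted p = 0.0132), Itga4 (1.91 ± 0.43, adjusted p = 0.00491) and Itga11 (1.02 ± 0.27, adjusted p = 0.0124) had positive differences, and Itga7 (-0.69 ± 0.19, adjusted p = 0.0156), Lamb2 (-0.43 ± 0.12, adjusted p = 0.0248) and Lama4 (-0.34 ± 0.11, adjusted p = 0.0485) negative ones. Itga7 was at -0.59 ± 0.15 in eWAT and 0.07 ± 0.17 in iWAT against lean mice, Lamb2 at -0.07 ± 0.10 and 0.34 ± 0.10, and Lama4 at -0.16 ± 0.12 and 0.16 ± 0.12. At 6 and 12 weeks none was called with edgeR (0.597% and 0.0542% of all genes), with unadjusted p under 0.05 in 5 and 10 genes and DESeq2 calls in 1 and 4. So the calls of Itgb2 and Itgam in eWAT but not in iWAT at those times are not shown to differ between the depots (Itgb2 at 12 weeks 2.14 ± 0.60, adjusted p = 0.0741). Without the mouse as a block no gene was called in obesity, and without obese replicate 2 Lamb2 was not called. Of 8 macrophage markers 4 had a called difference in response at 2 weeks, all positive, and their part was not tested.

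Measured against obesity itself, few genes changed their difference from lean mice beyond the spread. In eWAT 4 of 34 did so by 2 weeks (5.82% of all genes, with 2.09% higher and 3.74% lower): Lamb3, Itga7 and Lamc1 downward and Itga10 upward (0.92 ± 0.27, adjusted p = 0.0341). By 6 weeks there was 1 (1.21%, with 0.314% higher and 0.901% lower), Lamb3. By 12 weeks there were 2 (2.32%, with 0.726% higher and 1.6% lower), Lamb3 and Itga7. In iWAT 4 of 33 did so by 2 weeks (4%, with 1.89% higher and 2.12% lower). These were Lamb3, Itga9 (-1.27 ± 0.31, adjusted p = 0.014) and Lamc1 downward and Itga3 upward (0.69 ± 0.20, adjusted p = 0.0362). By 6 weeks there was 1 (1.38%, with 0.863% higher and 0.518% lower), Lamb3. By 12 weeks there were 4 (4.85%, with 2.35% higher and 2.5% lower), Lamb3, Lamc1, Itga9 (-1.17 ± 0.31, adjusted p = 0.0198) and Itgb5 (-0.88 ± 0.19, adjusted p = 0.00388). None of the leukocyte integrins was among them in either depot; for Itgb2 in eWAT the change from obesity to 12 weeks was 0.29 ± 0.71, adjusted p = 0.901.

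Genes that act beside integrins and laminins were read from lists chosen by their role. Of 29 cytoplasmic adaptors and activators of integrins, 11 rose and 2 fell in obese eWAT, 10 rose and 1 fell at 2 weeks, 3 rose at 6 weeks and 7 at 12 weeks. Of all genes tested in eWAT, 14.1% rose and 9.31% fell in obesity, 18.6% and 17.1% at 2 weeks, 5.56% and 2.02% at 6 weeks, and 10.8% and 4.51% at 12 weeks, and the called share of the adaptors at 2 weeks was near that of all genes. Fermt3, the kindlin of blood cells that activates beta 2 integrins, was called at each of the 4 times (1.66 ± 0.37, 2.11 ± 0.37, 1.55 ± 0.36 and 1.79 ± 0.36). Tln2, a talin, rose in obese eWAT (0.55 ± 0.12, adjusted p = 0.000771) and iWAT (1.03 ± 0.19, adjusted p = 0.000101). In iWAT, where 14.7% of all genes rose in obesity and 9.44% at 2 weeks, 12 of 28 tested rose in obesity, led by the tensin Tns3 (1.002 ± 0.18, adjusted p = 5.63e-05), and 7 at 2 weeks, led by paxillin, Pxn (0.59 ± 0.12, adjusted p = 0.000865).

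Of 17 other basement membrane genes, 4 rose in obese eWAT, led by Col18a1 (0.68 ± 0.12, adjusted p = 0.000127), a collagen of vessel and epithelial basement membranes, and by Sparc (0.84 ± 0.16, adjusted p = 0.000345), a collagen-binding matrix protein. That count is near the share of all genes called in obese eWAT (23.4%). At 2 weeks 1 rose and 4 fell, against 35.7% of all genes called, among them nidogen 2, Nid2 (-1.41 ± 0.18, adjusted p = 6.64e-07), which links laminin to collagen IV, and Col15a1 (-1.12 ± 0.19, adjusted p = 2.65e-05). In obese iWAT 11 of 16 tested rose and none fell, against 14.7% and 15.5% of all genes; their median log2 fold change was 0.73, against 0.02 over all genes. At 2 weeks in iWAT 3 rose, led by Fbln1 (1.002 ± 0.20, adjusted p = 0.00059), and 2 fell, Col4a4 (-1.20 ± 0.27, adjusted p = 0.0016) and Col4a3 (-1.27 ± 0.29, adjusted p = 0.00207), chains of a specialised collagen IV. Of 16 other integrin ligands tested in eWAT, 10 rose in obesity, 11 at 2 weeks and 6 at each of 6 and 12 weeks, and none fell. The share of all genes that rose was 14.1%, 18.6%, 5.56% and 10.8%. In iWAT 9 of 17 tested rose in obesity and 4 at 2 weeks, none at 6 or 12 weeks and none fell, against 14.7%, 9.44%, 0.554% and 0.0216% of all genes that rose. Vcam1, the counter-receptor of alpha 4 integrins, was called in eWAT at all 4 times. Its values there were 1.15 ± 0.28, adjusted p = 0.00218 in obesity and 1.79 ± 0.27, adjusted p = 6.49e-06 at 2 weeks. At 6 and 12 weeks they were 1.06 ± 0.27, adjusted p = 0.0133 and 1.31 ± 0.27, adjusted p = 0.00126. Postn, a ligand of alpha V integrins, rose at 2 weeks (2.01 ± 0.23, adjusted p = 1.13e-07), and thrombospondin 1, Thbs1, rose at 2 weeks in both depots (3.39 ± 0.53, adjusted p = 1.09e-05 in eWAT; 4.01 ± 0.52, adjusted p = 9.75e-07 in iWAT). Of the other laminin receptors, syndecan 1, Sdc1, rose in obese eWAT (1.18 ± 0.26, adjusted p = 0.00122), and dystroglycan, Dag1, fell at 2 weeks in eWAT (-0.38 ± 0.08, adjusted p = 0.00024) and iWAT (-0.53 ± 0.13, adjusted p = 0.0028).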

How the data were processed

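Poly(A) RNA of epididymal and inguinal fat from 47 mice was sequenced, giving 94 libraries. The authors deposited whole-number read counts per gene and library, not normalized. Per the submitters' processing notes, STAR 2.4.1c, the mm10 build, R 4.2.2 and DESeq2 1.38.3 were used. The sources used here do not name the counter, the annotation or the strand setting, so overlapping and antisense genes may share counts. The authors' deposited DESeq2 tables were not used here.

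Groups were taken from the labels. Counts of each depot were filtered with filterByExpr, scaled with TMM factors and fitted over its 47 libraries with edgeR 4.0.16 (quasi-likelihood test, Benjamini-Hochberg adjustment over all genes tested, threshold 0.05) in R 4.3.3. Depots were compared in 1 fit over 94 libraries with the mouse as a block. Fold changes of the edgeR fits kept its default pseudocount. A pseudocount of 2 entered only the log2 marker levels used as terms. Scripts were tested on simulated data. Promoters came from RefSeq (GRCm38.p6) and gene positions and exon lengths from an mm10 annotation. Alternatives were DESeq2 1.42.0, its size factors in edgeR, no filter, a replicate block, and the run of mouse numbers as a term or alone. Others were a random block for the mice of each run within each group (limma 3.58.1) and the compared groups alone. Further ones were marker levels as terms (the mean log2 CPM of a marker list) and each library left out. Leaving out the libraries with duct or B cell signal was chosen after seeing the data.

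The genes, lists and tests were chosen with earlier results of these data known. For a part of the genes the value of each obese mouse is given, and the range and median of lean and regression groups. These are up to 4 called genes of each direction and comparison with the largest fold changes and a mean of at least 1 CPM. Genes called at all 4 times of a depot are added. So are up to 3 genes per depot comparison of the response, not always in both depots. Of other lists the 2 genes with the smallest adjusted p in each direction could be named; Thbs1 in eWAT, Fermt3 and Vcam1 at further times and Tln2 were added after their values were seen. Counts over the set include 1 gene whose own results are not reported here.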

Additional observations from a re-analysis of the deposited data

Results flagged for a closer look

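In 12 of 66 groups checked, 1 library lay far from the others of its group (Dixon's criterion, which chance meets in about 1 group in 20). In eWAT, Itgb2 was 23.8 CPM in lean replicate 3 at the obesity time, and at 2 weeks of regression Itgam was low in replicate 1 (34.5 CPM) and Itga11 high in replicate 2 (36.1 CPM). At 6 weeks Lama2 was high in regression replicate 6 (47.1 CPM) and Lama1 in regression replicate 4 (1.19 CPM). Lean replicate 5 of that time was high for Lama1 (6.39 CPM), and at 12 weeks Lama1 was high in regression replicate 3 (3.28 CPM). In iWAT, Itgad was high in lean replicate 5 at the obesity time (0.958 CPM) and in lean replicate 1 at 2 weeks (1.88 CPM), the library in which Itga5 was also high (60.3 CPM). Lama5 was low in regression replicate 5 at 2 weeks (20.04 CPM), and Itgae high in lean replicate 2 at 2 weeks (8.51 CPM).

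Other results are listed because 2 effects differed by a test of the difference itself. The response in eWAT minus that in iWAT was -0.54 for Lama4 and -0.56 for Lamb2 in obesity (log2 scale). At 2 weeks it was 2.18 for Itgb2, 1.91 for Itga4, 1.02 for Itga11, -0.69 for Itga7, -0.43 for Lamb2 and -0.34 for Lama4. The difference from lean mice after regression minus that in obesity was, for Lamb3, -1.77, -1.81 and -2.23 at 2, 6 and 12 weeks in eWAT and -2.28, -2.001 and -2.18 in iWAT. In eWAT it was -1.10 at 2 and -1.04 at 12 weeks for Itga7, -0.67 at 2 weeks for Lamc1 and 0.92 at 2 weeks for Itga10. In iWAT it was -1.27 at 2 and -1.17 at 12 weeks for Itga9, -0.67 and -0.70 for Lamc1, 0.69 at 2 weeks for Itga3 and -0.88 at 12 weeks for Itgb5.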

How the results depend on the processing

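No gene called against lean mice over all libraries changed direction under any alternative. Over these 69 called values, 1361 alternative values kept the call and 192 lost it. The alternatives include the fits with single libraries left out, which share nearly all their mice, so these values are not independent. Calls between depots and calls of the change since obesity were not part of this check of direction. The number of genes called with single libraries left out ran from 7 to 14 in obese eWAT, 17 to 20 at 2 weeks, 2 to 8 at 6 weeks and 8 to 18 at 12 weeks, and in iWAT from 13 to 16 in obesity and 5 to 8 at 2 weeks, with 0 at 6 and 12 weeks; the depot difference in obesity gave 1 to 2. The share of all genes called in those single-library fits is not given here. With the compared groups alone, 8 genes were called in obese eWAT, 2 at 6 weeks in eWAT and 3 at 2 weeks in iWAT. Over all genes these fits called 1381 higher and 944 lower of 13519, 757 and 231 of 12842, and 590 and 757 of 12956. Mice with replicate numbers 1 to 3 alone gave 3 in obese eWAT, 9 at 2 weeks, 0 at 6 weeks and 5 at 12 weeks, and 1 in iWAT at 2 weeks; those with 4 to 6 alone gave 0 in eWAT at 6 and at 12 weeks and 7 in obese iWAT. These fits hold fewer samples. In iWAT they called 5.06% of all genes at 2 weeks (replicates 1 to 3) and 9.57% in obesity (replicates 4 to 6). Marker levels as terms gave 3 at 6 weeks in eWAT, with 626 higher and 157 lower of 14323 over all genes. A random block for the mice of each run of mouse numbers within each group gave 1 at 6 weeks in eWAT. Over all genes it called 16 higher and 7 lower of 14323. At 2 weeks in iWAT it gave 2 (597 higher and 622 lower of 13899 over all genes). Leaving out the libraries with B cell signal also gave 2 there (1129 higher and 1342 lower of 13865). DESeq2 called 3 genes for the change since obesity at 6 weeks in iWAT (430 of 13583 over all genes). It called 1 for the depot difference at 6 weeks (324 of 14538) and 4 at 12 weeks (604 of 15291). Without the mouse as a block, the depot difference was called for 0 genes in obesity and 1 at 6 weeks. Over all 14749 genes that fit called 18 higher and 18 lower in obesity and 56 and 46 at 6 weeks. The cause of these changes was not tested.

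Replicate numbers did not pair the mice: deviations of same-numbered mice correlated at -0.0124 in eWAT and 0.0241 in iWAT on average. With the replicate block 13, 18, 4 and 11 genes were called in eWAT and 16, 6, 0 and 0 in iWAT. Over all 14323 genes tested in eWAT it called 1917 higher and 1346 lower in obesity and 2635 and 2518 at 2 weeks. At 6 weeks it called 707 and 152 there, and at 12 weeks 1545 and 787. In iWAT it called 2079 and 2248 of 13899 in obesity and 1343 and 1271 at 2 weeks. The iWAT calls were 78 and 73 at 6 weeks and 5 and 1 at 12 weeks. Low counts limit Itgad, Lama1 and Itgb6.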
